A study of Capra hircus with 10 samples.

Results

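The zona pellucida is the glycoprotein coat that surrounds the mammalian oocyte, and maternal-effect genes are those whose products the oocyte stores and the early embryo later uses. The growing oocyte switches on the coat genes under transcription factors such as FIGLA, and it builds up maternal proteins and mRNAs while the follicle grows around it. In an ovary that is sequenced whole, transcripts of this kind come from the small share of RNA that the oocytes contribute. The 9 genes described here are the coat genes ZP2, ZP3 and ZP4, the transcription factor genes FIGLA and NOBOX, and the maternal-effect genes NLRP5, PADI6, ZAR1 and KPNA7. They were given by name, and the values of all transcripts of a symbol typed as a protein-coding gene were summed, including an XR_ (non-coding) transcript of ZAR1. All 9 of 9 symbols were found among the 20587 gene symbols of the table.

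Ovaries of Anhui white goats were collected, 5 in the follicular phase of the estrous cycle and 5 in the luteal phase, and total RNA of each ovary was sequenced after ribosomal RNA was removed. The ovaries came from a slaughterhouse, no treatment or genotype is given, and nothing in the labels says that they came from separate goats, so the p-values measure the spread between these ovaries. Expression is given as FPKM, a fragment count relative to transcript length and to the size of the library. The fold changes below are luteal minus follicular on log2(FPKM + 0.1), a scale that understates the change of low genes. A gene is called when its limma p-value, adjusted by the Benjamini-Hochberg method over the 15359 genes tested, is under 0.05.

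Absolute depth is not known from FPKM. The steps between the lowest values of 3180 low genes gave the depth of the ovaries relative to each other, which ran from 66.4% to 100% of the deepest library in the follicular phase and from 65.5% to 74.7% in the luteal phase. Marker RNA of other cell types differed between the phases. Of 9 corpus luteum markers tested, 8 were called higher in the luteal phase and PGF was called lower (log2 fold change -0.95, limma adjusted p = 0.00445). Of all tested genes, 15.9% were called higher and 27.8% lower in the luteal phase. The summed FPKM of the corpus luteum list was 146 to 205 in the follicular phase and 6000 to 8207 in the luteal phase. The 9 genes are themselves defining markers of the oocyte, and each was above 0 in every ovary.

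All 9 genes had a log2 fold change below 0, as had 62.0% of all tested genes. KPNA7, NLRP5, ZP3, ZAR1, NOBOX and ZP2 fell, whereas FIGLA, ZP4 and PADI6 did not pass the test. The 6 called genes stand against 43.7% of all tested genes called in either direction and 27.8% called higher in the follicular phase. None of the 9 was called higher in the luteal phase by limma, at an adjusted or an unadjusted p under 0.05, against 15.9% of all tested genes. This split of all tested genes depended on the scaling, with 4272 genes called higher in the follicular phase and 2439 in the luteal phase on FPKM and 2610 and 2884 on the TPM scale, where each ovary has the same sum. The 9 genes stayed lower in the luteal phase, with 6 called, on TPM, after a shift to a common median and after quantile normalization. The median log2 fold change of the 9 genes was -1.21, and that of all tested genes was -0.14. The phases did not overlap for KPNA7, NLRP5 and ZP2, against 17.2% of all tested genes that lay higher in the follicular phase without overlap. All 9 passed the filter on low values, which asked for 5 or more ovaries with an FPKM of 0.1 or more. NLRP5 reached this FPKM in 5 follicular and 2 luteal ovaries, NOBOX in 5 and 3 and ZAR1 in 5 and 4, so that these 3 genes, all called, met the filter through the phase where they were higher. Of the other 6 genes, ZP2, ZP3 and KPNA7 were called and 3 were not, and the count of 6 called genes is a description. In a whole ovary, fewer oocytes, less RNA per oocyte and a larger share of RNA from other cells cannot be told apart.

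**Figure D1:**
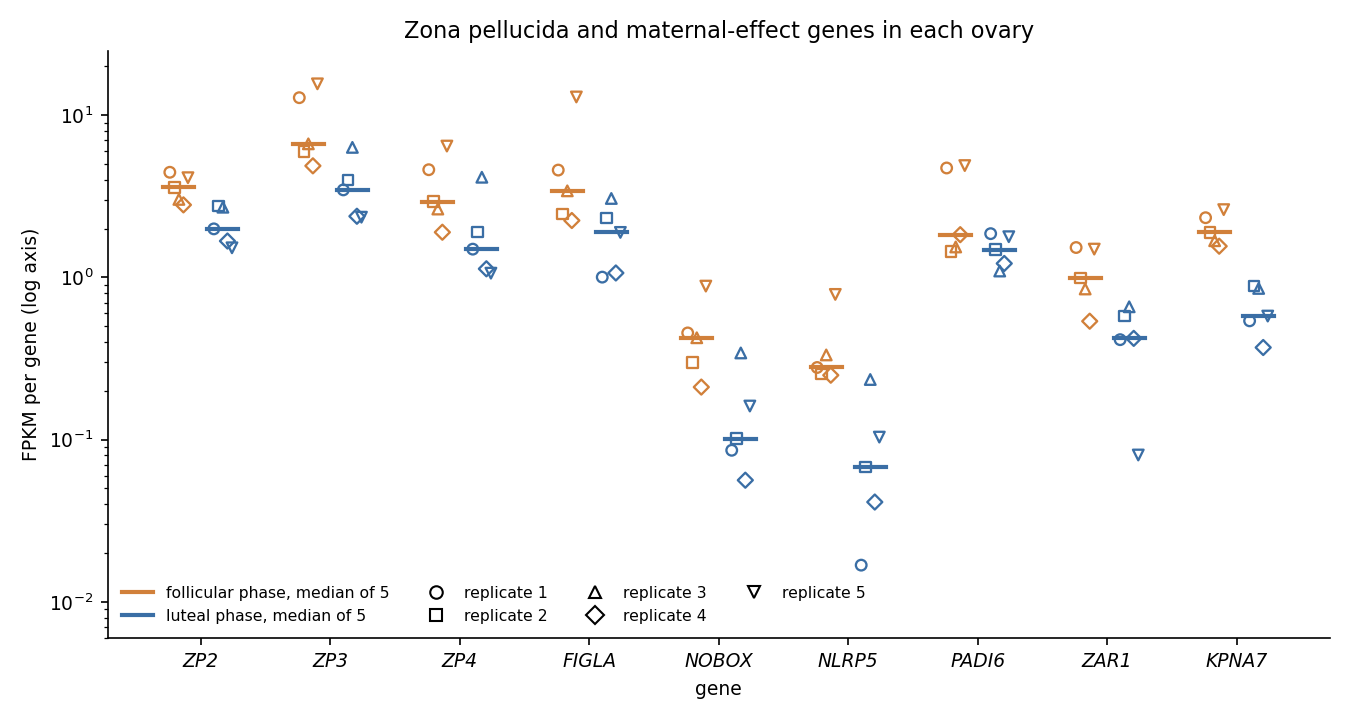
FPKM per gene on a log axis for the 9 zona pellucida and maternal-effect genes in 5 follicular phase ovaries (orange) and 5 luteal phase ovaries (blue); symbols mark the replicate and bars the median of each phase. The phases are apart for KPNA7, NLRP5 and ZP2, and follicular phase replicate 5 is the highest follicular ovary for 7 of the 9 genes.

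ZP2 (Gene ID 102189816) encodes the coat protein that sperm bind and that is cleaved after fertilization. Its FPKM was 4.45, 3.59, 3.03, 2.80 and 4.12 in follicular phase replicates 1 to 5, and 1.99, 2.76, 2.71, 1.68 and 1.52 in luteal phase replicates 1 to 5. Every follicular ovary lay above every luteal ovary, although the lowest follicular ovary and the highest luteal ovary were nearly level. ZP2 fell by 0.75 on the log2 scale (standard error 0.20, limma adjusted p = 0.00999), with means of 3.60 ± 0.700 and 2.13 ± 0.574 (SD, n = 5 each).

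ZP3 (Gene ID 102183202), which pairs with the other zona proteins in the filaments of the coat, was the most abundant of the 9 genes in both phases. Its FPKM in the follicular phase was 12.8, 6.005, 6.67, 4.88 and 15.6, and in the luteal phase 3.47, 3.98, 6.34, 2.39 and 2.35. The phases overlapped through luteal phase replicate 3, which exceeded follicular phase replicates 2 and 4. ZP3 fell by 1.24 (standard error 0.35, limma adjusted p = 0.0152), from a mean of 9.20 ± 4.74 to 3.71 ± 1.63 (SD, n = 5 each).

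ZP4 (Gene ID 102172868), the third coat gene, had an FPKM of 4.62, 2.93, 2.64, 1.90 and 6.46 in the follicular phase and 1.495, 1.91, 4.15, 1.13 and 1.06 in the luteal phase. Luteal phase replicate 3 lay among the high follicular ovaries, luteal phase replicate 2 was level with the lowest follicular ovary, and the other 3 luteal ovaries were lower. The log2 fold change was -0.95 (95% interval -1.80 to -0.09, limma adjusted p = 0.0691), so ZP4 was not called. It was called without luteal phase replicate 3 (-1.25, adjusted p = 0.0115) and without follicular phase replicate 4 (-1.15, adjusted p = 0.0402).

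For transcripts that oocytes alone make, a ratio within an ovary does not depend on the share of oocytes in it. The ratio of ZP3 to ZP2 in FPKM ran from 1.42 to 3.79 over the 10 ovaries, with a geometric mean of 2.34 in the follicular phase and 1.67 in the luteal phase. Its highest value was in follicular phase replicate 5, and the phases overlapped. The ratio of ZP3 to ZP4 was narrower, from 1.53 to 2.78, with its lowest value in luteal phase replicate 3, and its geometric mean was 2.45 and 2.03. The ratio of ZP4 to ZP2 was between 0.674 and 1.57, with geometric means of 0.953 and 0.821. None of these 3 ratios separated the phases.

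FIGLA (Gene ID 102188600) encodes a basic helix-loop-helix transcription factor that is needed for the first follicles to form and that drives the zona genes. Its FPKM was 4.59, 2.46, 3.42, 2.25 and 13.0 in the follicular phase and 1.01, 2.32, 3.07, 1.07 and 1.90 in the luteal phase. Follicular phase replicate 5 stood far above all other ovaries, and the remaining follicular ovaries overlapped the luteal ones. The log2 fold change was -1.21 (95% interval -2.21 to -0.21, limma adjusted p = 0.0507), just short of a call. It was called without follicular phase replicate 2 (adjusted p = 0.0371), without follicular phase replicate 4 (0.0356) and without luteal phase replicate 3 (0.0343), whereas without follicular phase replicate 5 the change was -0.80 (adjusted p = 0.0824).

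NOBOX (Gene ID 102189550), a homeobox transcription factor gene of the early oocyte, was low throughout. Its FPKM was 0.455, 0.300, 0.425, 0.211 and 0.885 in the follicular phase and 0.0860, 0.101, 0.343, 0.0562 and 0.161 in the luteal phase. Luteal phase replicate 3 was the only luteal ovary inside the follicular range. NOBOX fell by 1.14 (standard error 0.35, limma adjusted p = 0.0214), and this call was lost without luteal phase replicate 4 (-1.001, adjusted p = 0.0552).

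NLRP5 (Gene ID 102170173) encodes a scaffold of the subcortical maternal complex, a protein assembly under the oocyte membrane that the embryo needs for its first divisions. Its FPKM was 0.279, 0.254, 0.333, 0.250 and 0.786 in the follicular phase and 0.0168, 0.0680, 0.235, 0.0412 and 0.104 in the luteal phase. The phases did not overlap, with luteal phase replicate 3 just under the lowest follicular ovary. NLRP5 fell by 1.31 (standard error 0.34, limma adjusted p = 0.00930). At this low level the size of the change rests on the pseudocount, and it was -0.33 with a pseudocount of 1 and -2.16 with 0.01, called in both. The same held for NOBOX (-0.33 and -1.64), ZAR1 (-0.53 and -1.48) and, with the pseudocount of 1, KPNA7 (-0.87), all of them still called. NLRP5 was the lowest of the 9 genes in both phases, and the NLRP genes are a family of related copies, so how fragments were divided among them adds an uncertainty of unknown size.

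PADI6 (Gene ID 102173898), an oocyte member of the peptidylarginine deiminase family that is needed for the cytoplasmic lattices of the oocyte, had an FPKM of 4.73, 1.45, 1.54, 1.84 and 4.90 in the follicular phase. In the luteal phase it was 1.86, 1.48, 1.096, 1.22 and 1.78. Follicular phase replicates 1 and 5 stood apart, and the other 3 follicular ovaries lay within the luteal range. The log2 fold change was -0.74 (95% interval -1.51 to 0.03, limma adjusted p = 0.109), and PADI6 remained uncalled when any single ovary was left out (adjusted p from 0.0509 to 0.241).

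ZAR1 (Gene ID 102178614) encodes an RNA-binding protein of the oocyte that is needed for the passage from egg to embryo. Its FPKM was 1.53, 0.990, 0.849, 0.538 and 1.496 in the follicular phase and 0.414, 0.580, 0.660, 0.421 and 0.0804 in the luteal phase. The phases overlapped only through follicular phase replicate 4. ZAR1 fell by 1.22 (standard error 0.39, limma adjusted p = 0.0267). The call was lost without follicular phase replicate 1 (-1.08, adjusted p = 0.0645) and without follicular phase replicate 5 (-1.09, adjusted p = 0.0606), and the change was -0.87 without luteal phase replicate 5 (adjusted p = 0.0377), where the whole ZAR1 value comes from the non-coding transcript.

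KPNA7 (Gene ID 102172591), an importin alpha gene of the oocyte and early embryo whose product carries proteins into the nucleus, had the lowest adjusted p of the 9 genes. Its FPKM was 2.34, 1.90, 1.68, 1.56 and 2.62 in the follicular phase and 0.540, 0.886, 0.856, 0.370 and 0.578 in the luteal phase. Every follicular ovary was well above every luteal ovary. KPNA7 fell by 1.53 (standard error 0.23, limma adjusted p = 0.000397), which is a 2.90-fold lower level in the luteal phase. Of all tested genes, 0.781% had a lower log2 fold change. When any single ovary was left out, the change stayed between -1.65 and -1.38 and the adjusted p stayed at or under 0.00151.

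FPKM is scaled by length and allows the levels of the genes to be put in order. In the follicular phase the order by mean FPKM was ZP3, FIGLA, ZP4, ZP2, PADI6, KPNA7, ZAR1, NOBOX and NLRP5, from 9.20 to 0.380. In the luteal phase it was ZP3, ZP2, ZP4, FIGLA, PADI6, KPNA7, ZAR1, NOBOX and NLRP5, from 3.71 to 0.0929. In each phase 7 of the 8 pairs of neighbours had overlapping ranges. The exceptions were KPNA7 above ZAR1 in the follicular phase and PADI6 above KPNA7 in the luteal phase. ZP3 lay above 57.5% of all tested genes in the follicular phase and above 37.3% in the luteal phase, while NLRP5 lay above 9.59% and 1.35%. The spread between follicular ovaries, as the SD in percent of the mean, was 19.5% for ZP2 and 22.1% for KPNA7 but 87.1% for FIGLA. The 2 genes with the least spread in the follicular phase were both called, and of the 3 with the most spread, FIGLA, PADI6 and NLRP5, only NLRP5 was called.

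**Figure D2:**
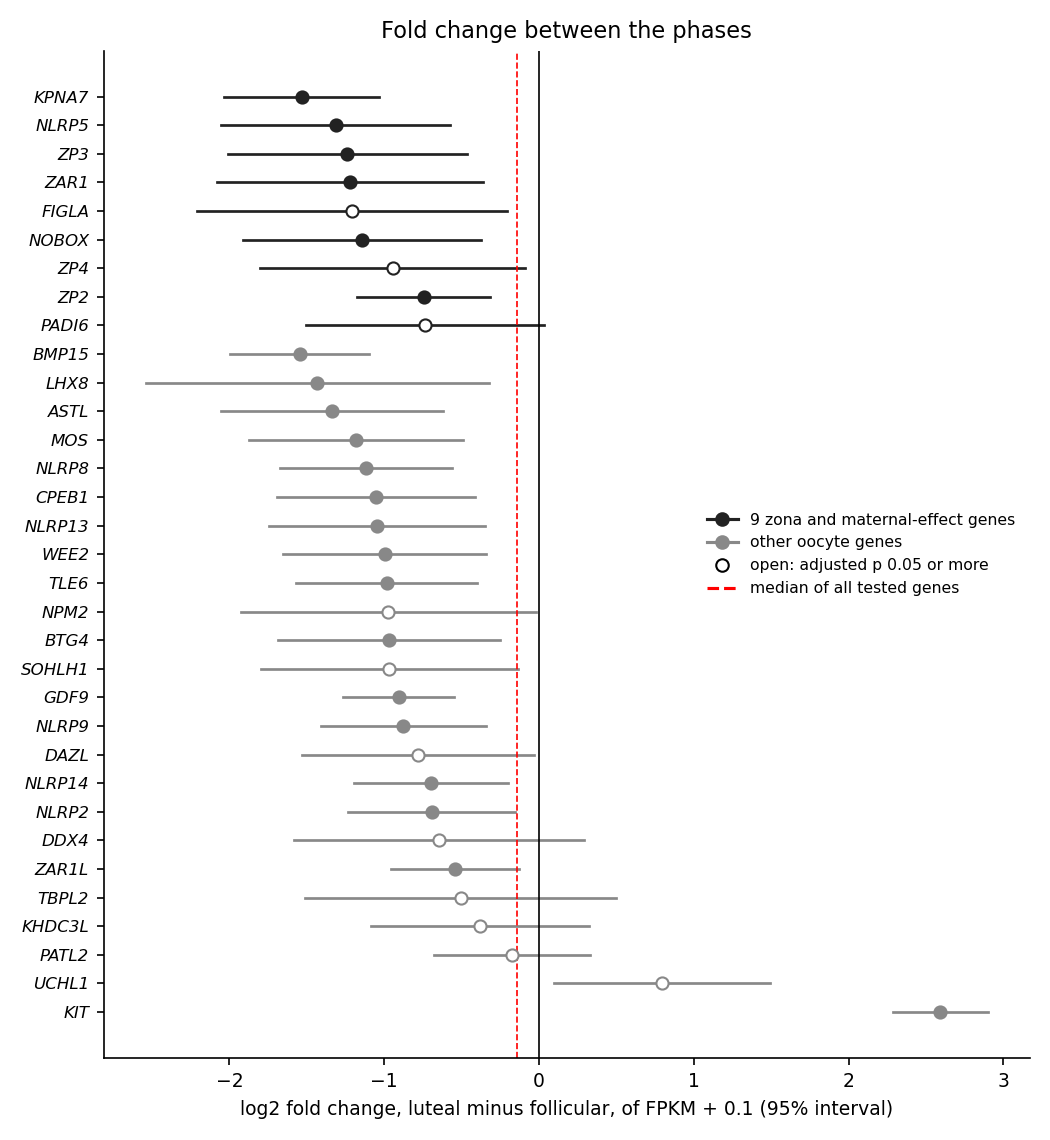
Log2 fold change of FPKM + 0.1, luteal minus follicular, with 95% intervals for the 9 zona pellucida and maternal-effect genes (black) and 24 other oocyte genes (grey); filled points have an adjusted p under 0.05 and the dashed line marks the median of all tested genes at -0.14. All 9 black points lie left of 0, and KIT is the only called gene at the right.

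Of a list of 35 other oocyte genes, 26 were found and 24 passed the filter. In the luteal phase 15 of these 24 were lower and 1 was higher, while 8 did not pass the test. The background is 27.8% of tested genes higher in the follicular phase and 15.9% higher in the luteal phase. The count is a description, since NLRP2, NLRP8, NLRP9, NLRP13 and WEE2, 5 of the 15, met the filter through the follicular phase. Of the 17 genes with an FPKM of 0.1 or more in every luteal ovary, 10 were lower in the luteal phase, 1 was higher and 6 were not called. The median log2 fold change of the 24 genes was -0.94. GPR3 was below the filter and OOSP2 was listed at 0 in every ovary.

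The subcortical maternal complex and the coat are represented in this list by further genes. ASTL, the oocyte protease that cleaves ZP2, had an FPKM of 3.83, 1.36, 2.22, 1.31 and 3.37 in the follicular phase and 0.698, 1.03, 1.12, 0.449 and 0.946 in the luteal phase, without overlap. ASTL fell by 1.34 (standard error 0.33, limma adjusted p = 0.00726). TLE6, a partner of NLRP5 in the complex, fell by 0.98 (adjusted p = 0.0121), whereas KHDC3L of the same complex had a change of -0.38 (adjusted p = 0.359). NLRP14 (0.70) and NLRP13 (1.05) also fell, as did NLRP2 (0.69), NLRP9 (0.88) and NLRP8 (1.12). NLRP2 and NLRP9 reached an FPKM of 0.1 in 5 follicular and 3 luteal ovaries each, NLRP13 in 5 and 4 and NLRP8 in 5 and 1, so that their calls are no count of support.

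GDF9 and BMP15 encode the growth factors that the oocyte secretes to the follicle cells. BMP15 had an FPKM of 1.64, 1.90, 1.205, 1.31 and 1.21 in the follicular phase and 0.422, 0.512, 0.590, 0.395 and 0.263 in the luteal phase, a fall of 1.55 (standard error 0.21, limma adjusted p = 0.000190). GDF9, its partner, was at 2.81 to 4.75 and 1.5 to 2.21 and fell by 0.91 (adjusted p = 0.00125). For both genes the phases were apart.

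LHX8, a transcription factor gene of the early oocyte, was at 2.18, 1.04, 0.799, 0.779 and 2.98 in the follicular phase and 0.206, 0.788, 1.27, 0.158 and 0.358 in the luteal phase, with overlap, and it fell by 1.43 (standard error 0.51, limma adjusted p = 0.0391). MOS, the kinase that holds the mature egg at metaphase, was at 4.00, 2.95, 2.71, 2.38 and 7.13 in the follicular phase and 1.18, 1.67, 2.43, 0.895 and 1.74 in the luteal phase, overlapping only through luteal phase replicate 3, and it fell by 1.18 (adjusted p = 0.0111). NLRP8, which met the filter through the follicular phase, was at 0.263, 0.407, 0.240, 0.133 and 0.145 there and at 0.0351, 0.106, 0.0314, 0.0476 and 0.0378 in the luteal phase (adjusted p = 0.00462). The germ cell genes DDX4 and DAZL and the early oocyte transcription factor gene SOHLH1 had changes of -0.65, -0.78 and -0.97 and were not called (adjusted p = 0.238, 0.0833 and 0.0577).

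KIT, the receptor of KIT ligand, moved against the list. Its FPKM was 12.7, 11.5, 11.1, 11.2 and 13.1 in the follicular phase and 59.5, 56.5, 69.3, 92.6 and 91.5 in the luteal phase, a rise of 2.59 (standard error 0.14, limma adjusted p = 2.29e-07). KIT is known from several cell types besides the oocyte, such as mast cells. UCHL1, a deubiquitinase that neurons also make, had a change of 0.79 (adjusted p = 0.0632). These 2 genes had the highest mean FPKM of the list in both phases.

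**Figure D3:**
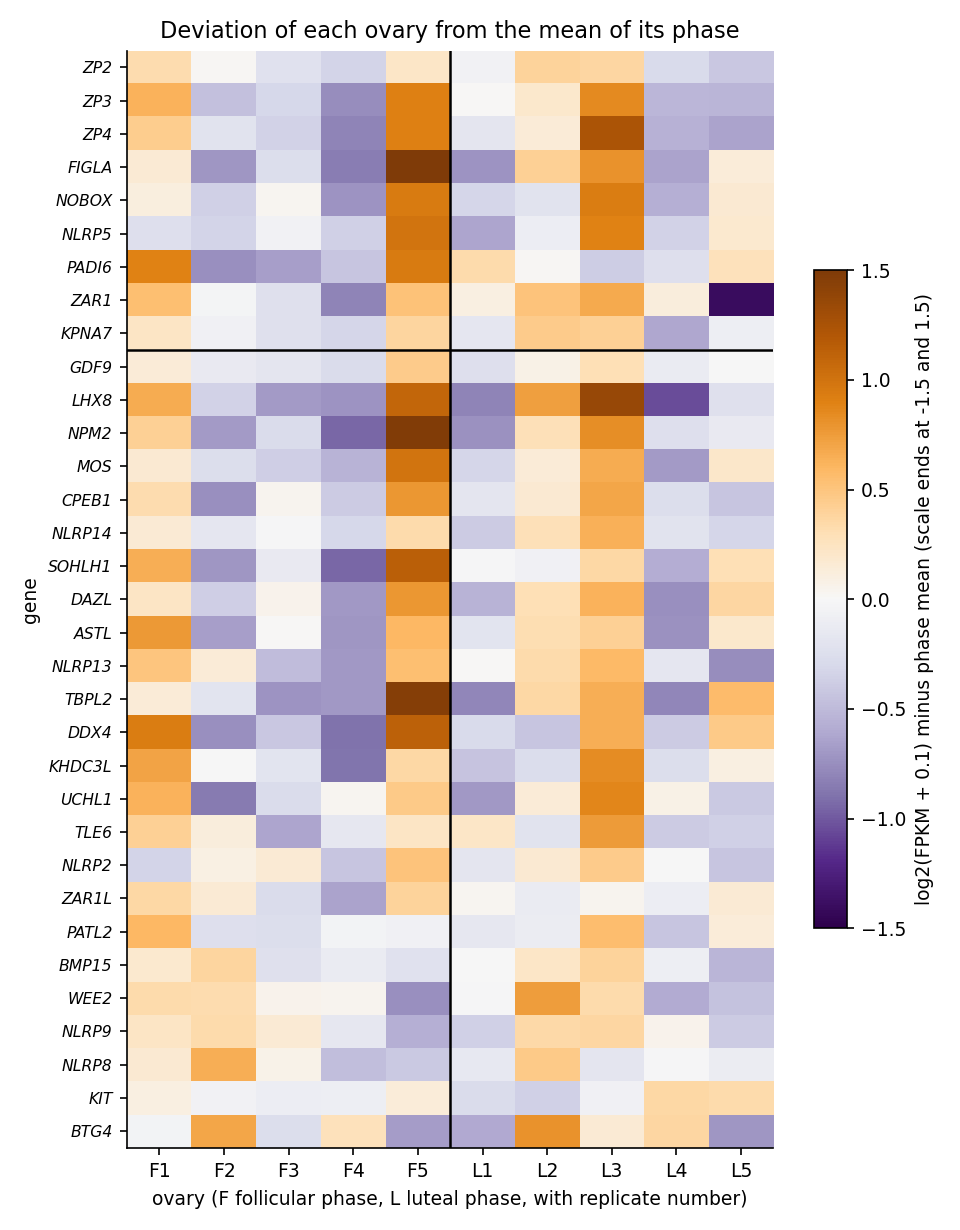
Deviation of log2(FPKM + 0.1) in each ovary from the mean of its phase for the 9 zona pellucida and maternal-effect genes (above the line) and 24 other oocyte genes (below it, ordered by likeness to the 9 genes); orange is above and purple below the phase mean. Follicular phase replicate 5 and luteal phase replicate 3 are orange for most genes. BTG4, WEE2, NLRP8, NLRP9, BMP15 and, only slightly, PATL2 are below the phase mean in follicular phase replicate 5.

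Within a phase the 9 genes tended to deviate together from ovary to ovary. Follicular phase replicate 5 lay above the mean of its phase for 9 of the 9 genes and follicular phase replicate 1 for 8, while follicular phase replicate 4 lay below it for all 9 and was the lowest ovary for 8. In the luteal phase, replicate 3 was above the phase mean for 8 genes and was the highest ovary for 6. The summed FPKM of the 9 genes was 35.8, 19.9, 20.6, 16.2 and 49.9 in follicular phase replicates 1 to 5 and 10.9, 14.1, 19.5, 8.37 and 9.54 in luteal phase replicates 1 to 5. Luteal phase replicate 3 thus lay inside the follicular range.

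On values centred within each phase, Pearson's r between 2 of the 9 genes was positive in 36 of 36 pairs, from 0.243 to 0.965 with a median of 0.732 over the 10 ovaries. These values are a description, since genes measured in the same libraries share depth and composition. Of all tested genes, 61.0% lay above their phase mean in follicular phase replicate 1, 58.4% in follicular phase replicate 5, 37.9% in follicular phase replicate 4 and 50.8% in luteal phase replicate 3. The median deviation over all tested genes was within 0.05 of 0 in every ovary, whereas the mean deviation of the 9 genes was 0.83 in follicular phase replicate 5, 0.64 in luteal phase replicate 3 and -0.60 in follicular phase replicate 4. Follicular phase replicate 5 and luteal phase replicate 3 were also the shallowest libraries of their phases, at 66.4% and 65.5% of the deepest. Follicular phase replicate 1, with a mean deviation of 0.34, was at 97.9%, and follicular phase replicate 4 was at 92.7%. The part of depth in these deviations was not tested. Against the mean of the other 8 genes, r was highest for ZP3 (0.97) and ZP4 (0.95) and lowest for ZAR1 (0.63) and PADI6 (0.46).

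The difference between the maternal-effect genes and the transcription factor genes was also taken within each ovary, as the mean log2(FPKM + 0.1) of NLRP5, ZAR1, PADI6 and KPNA7 minus that of NOBOX and FIGLA. It was -0.19 ± 0.38 in the follicular phase and -0.22 ± 0.42 in the luteal phase (SD, n = 5 each), with overlapping ranges. The lowest values were -0.78 in follicular phase replicate 5, -0.69 in luteal phase replicate 3 and -0.63 in luteal phase replicate 5.

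The mean profile of the 9 genes, scaled and centred by phase, was compared with every tested gene over the 10 ovaries. The 10 genes most like it that are not members had r from 0.96 to 0.98. They were ESRP1, RUBCNL, TDRD15, DNAH11, ZNF770, EYA1, SLC47A2 and the unnamed loci LOC102175160, LOC102172084 and LOC102173837. Their changes between the phases differed. ESRP1, EYA1 and LOC102173837 were called higher in the follicular phase, LOC102172084 was called higher in the luteal phase (0.68, limma adjusted p = 0.0147) and the other 6 were not called. These are the highest of 15359 values over only 10 ovaries, given as a description.

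The other oocyte genes differed in their likeness to this profile. r was 0.94 for GDF9 and LHX8, 0.93 for NPM2, 0.92 for MOS and 0.90 for CPEB1. It was 0.32 for BMP15, 0.09 for WEE2, 0.04 for NLRP9, -0.08 for NLRP8, -0.17 for BTG4 and -0.09 for KIT. GDF9, LHX8, MOS and CPEB1 were called higher in the follicular phase, and NPM2 was not called (limma adjusted p = 0.0903). BMP15, WEE2, NLRP9, NLRP8 and BTG4 were also called higher in the follicular phase, although WEE2, NLRP9 and NLRP8 met the filter through that phase. BTG4, which brings the deadenylase to maternal mRNAs, had an FPKM of 2.01, 3.40, 1.72, 2.51 and 1.25 in the follicular phase and 0.625, 1.82, 1.13, 1.32 and 0.573 in the luteal phase. WEE2, the oocyte kinase that restrains CDK1, was at 0.614, 0.608, 0.488, 0.486 and 0.238 in the follicular phase and 0.180, 0.375, 0.257, 0.0882 and 0.108 in the luteal phase. For BTG4 and WEE2, follicular phase replicate 5 was the lowest follicular ovary and luteal phase replicate 2 the highest luteal ovary. FIGLA, NOBOX, ZP3, ZP4 and NLRP5 were highest in follicular phase replicate 5 and luteal phase replicate 3. ZP2 and KPNA7, like BTG4 and WEE2, were highest in luteal phase replicate 2, with ZP2 highest in follicular phase replicate 1 and KPNA7 in follicular phase replicate 5. ZAR1 was highest in follicular phase replicate 1 and luteal phase replicate 3, and PADI6 in follicular phase replicate 5 and luteal phase replicate 1.

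**Figure D4:**
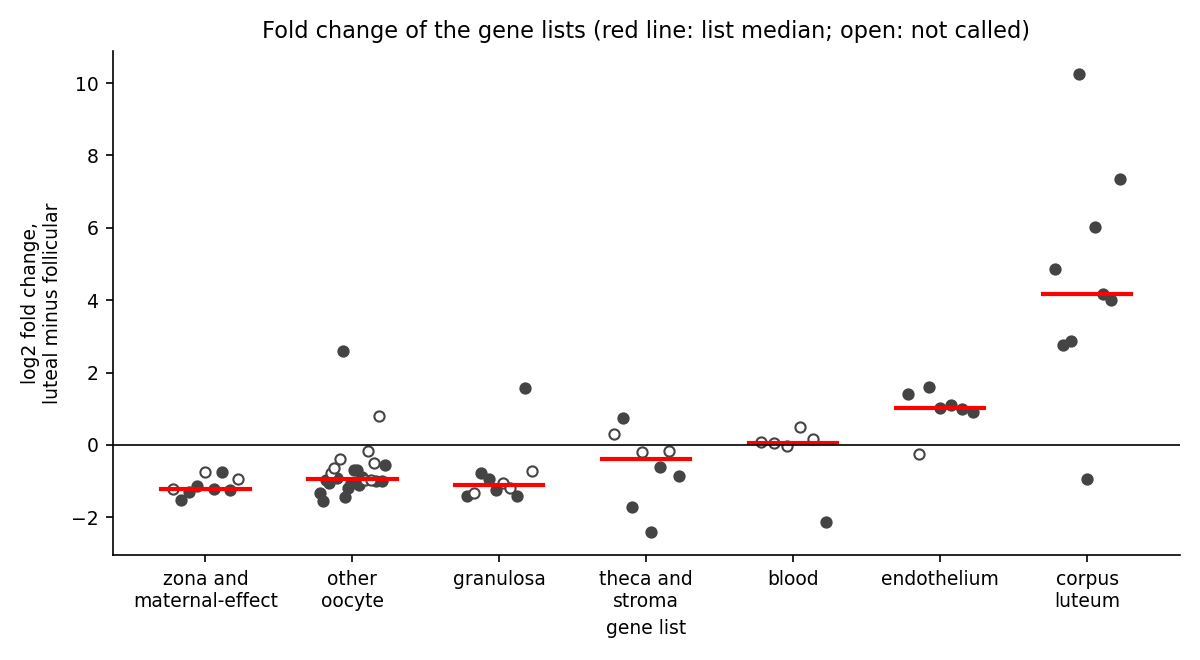
Log2 fold change, luteal minus follicular, of each tested gene in 7 gene lists; each point is a gene, filled where its adjusted p is under 0.05, and red lines mark list medians. The 9 zona pellucida and maternal-effect genes have a median of -1.21, near that of the granulosa markers at -1.11, and the corpus luteum markers have a median of 4.18.

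Granulosa cells surround the oocyte in the follicle. Of 10 granulosa markers tested, FSHR, AMH, INHBB, FOXL2 and HSD17B1 were called higher in the follicular phase and NR5A2 higher in the luteal phase, and 4 were not called. Their median log2 fold change was -1.11. The summed FPKM of this list was 453 to 1745 in the follicular phase and 271 to 1142 in the luteal phase, and none of its genes was at 0. The most abundant granulosa markers, SERPINE2 and INHA, were not called (-0.71 and -1.04, limma adjusted p = 0.105 and 0.149). Of 7 endothelium markers 6 were called higher in the luteal phase, with a summed FPKM of 111 to 134 and 214 to 271. Of 8 theca and stroma markers 4 were called higher in the follicular phase and 1 in the luteal phase (sum 2283 to 3071 and 2540 to 4027), and of 6 blood markers 1 was called higher in the follicular phase (sum 31.1 to 54.2 and 28.4 to 36.6). Of all tested genes, 27.8% were called higher in the follicular phase and 15.9% in the luteal phase. The part of these cell types in the lower level of the 9 genes was not tested.

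Within a phase the order of the ovaries by granulosa sum was another. Luteal phase replicate 3, the highest luteal ovary for 6 of the 9 genes, had the lowest granulosa sum of its phase at 271 and the highest theca and stroma sum at 4027. Its corpus luteum sum was also the lowest, at 6000 against 7857 to 8207 in the other 4 luteal ovaries. Follicular phase replicate 5 had a granulosa sum of 957, the third highest of its phase, and follicular phase replicate 1 had the highest at 1745.

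The 9 genes are represented by 13 transcripts, of which 11 passed the filter. Tested singly among all transcripts, those of NLRP5, ZP2, ZP3 and KPNA7 were called higher in the follicular phase and none was called higher in the luteal phase, against 9.82% and 7.47% of all tested transcripts and 17.3% called in either direction. The single transcript of NOBOX had the same log2 fold change of -1.14 as the gene and the main transcript of ZAR1, listed at 0 in luteal phase replicate 5, had -1.38, but neither was called at this level (adjusted p = 0.0661 and 0.112). This count of 4 was 2 with equal medians in all ovaries and 1 in the TPM fit. Among fits that left out an ovary, it fell to 1 without follicular phase replicate 1 or 5 or luteal phase replicate 1, 4 or 5, fell to 2 without follicular phase replicate 3 or luteal phase replicate 2, and was 6 without luteal phase replicate 3.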

How the data were processed

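Strand-specific, paired-end libraries were made from total RNA of 5 follicular and 5 luteal phase goat ovaries without its ribosomal RNA. The authors used HISAT2 for alignment, StringTie for assembly and Cuffdiff for the deposited FPKM of each transcript and ovary. The genome build and how shared fragments were divided are not given in the sources used here. Deposited columns were assigned to ovaries by phase and replicate number.

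FPKM of all transcripts of genes typed protein-coding (a non-coding ZAR1 transcript included) was summed by symbol and analysed as log2(FPKM + 0.1) with limma 3.58.1 in R 4.3.3 (eBayes with trend, two-sided, no block, Benjamini-Hochberg over all genes tested). The fit was tested on simulated data. Intervals are 95%. Alternatives were pseudocounts of 1 and 0.01, other filters, other scalings, eBayes without trend, a replicate block and leaving out each ovary. Listed symbols were also matched through RefSeq synonyms. Members and lists were chosen with earlier results of these data known. Besides the 9 genes, the text names listed oocyte genes (full values for the 6 with the largest called change), the most abundant markers and the 10 most alike genes. Called granulosa markers, PGF, GPR3, OOSP2 and the values of GDF9, BTG4 and WEE2 were chosen after they were seen.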

Additional observations from a re-analysis of the deposited data

Results flagged for a closer look

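Among the 18 sets of 5 ovaries (9 genes in 2 phases), 3 had an ovary whose gap to the nearest other ovary was over 0.71 of the range of its phase in FPKM, the critical value of Dixon's test. For independent, normal values chance gives about 1 in 20 sets, a rate that need not hold here, since FPKM is skewed and the sets share ovaries. ZP4 was at 4.15 in luteal phase replicate 3, with a gap of 0.727 of the range. FIGLA was at 13.0 in follicular phase replicate 5, with a gap of 0.781 of the range. NLRP5 was at 0.786 in the same ovary, with a gap of 0.845 of the range. On log2(FPKM + 0.1), a scale added after the data were seen, the gap was 0.580 for ZP4, 0.596 for FIGLA and 0.770 for NLRP5, so that only NLRP5 stayed past the critical value, and ZAR1 in luteal phase replicate 5 (FPKM 0.0804) passed it with 0.728. Leaving out follicular phase replicate 5 gave log2 fold changes of -0.80 for FIGLA (adjusted p = 0.0824) and -1.07 for NLRP5 (adjusted p = 0.0169).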

How the results depend on the processing

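Over all alternatives each of the 9 genes stayed lower in the luteal phase. Between 5 and 8 of them were called, with 5 when follicular phase replicate 1 or 5 or luteal phase replicate 4 was left out. At a minimum FPKM of 0.5, 5 of 7 tested were called, and NOBOX and NLRP5 were not tested, as they did not reach it in 5 ovaries. ZP2, ZP3, NLRP5 and KPNA7 were called in every fit in which they were tested. FIGLA was also called at the minimum FPKM of 0.5 (adjusted p = 0.0491). Called transcripts of the 9 genes numbered 2 after a shift to a common median, 1 on the TPM scale and 1 to 6 when an ovary was left out. The other oocyte genes called higher in the luteal phase numbered 2 after that shift and on the TPM scale, and 1 to 2 when an ovary was left out (2 without follicular or luteal phase replicate 1). The other oocyte genes called higher in the follicular phase ranged from 10 to 17. The cause was not tested. Equal replicate numbers were not treated as pairs, since no label ties them. The correlations between the deviations of same-numbered ovaries were all positive, at 0.026, 0.199, 0.192, 0.088 and 0.036 for numbers 1 to 5. Follicular phase replicates 2, 3 and 4 and luteal phase replicates 2 and 4 were most like the ovary of their own number, and the others were not. These values do not settle whether the numbers are pairs. With a replicate block 7 genes and 2 transcripts were called. FIGLA (adjusted p = 0.0434) and PADI6 (0.0342) were gained and ZAR1 was lost (0.0516). FPKM gives no counts, so the counting error of the lowest genes, NLRP5 and NOBOX, is unknown.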

Other observations

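The 3 transcripts of FIGLA did not keep 1 proportion. XM_018054758.1 made up 82.9% of the summed FIGLA FPKM in the follicular phase and 72.3% in the luteal phase, with 57.4% to 92.5% in single ovaries. XM_018054759.1 was at 0.861, 0.683 and 0.898 in follicular phase replicates 3, 4 and 5 and at 0.804 and 0.391 in luteal phase replicates 3 and 5, and it was at most 0.0114 in the other 5 ovaries. XM_018054757.1 had a log2 fold change of -0.26 (limma adjusted p = 0.738). These differences between transcripts of 1 gene were not tested.

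In luteal phase replicate 5 the main ZAR1 transcript XM_013964626.2 was listed at 0, and the whole ZAR1 value of 0.0804 came from XR_001918190.1, which was at most 0.0381 in any other ovary. A listed 0 can be a failed estimate. Without this ovary the log2 fold change of ZAR1 was -0.87 (limma adjusted p = 0.0377). The ZP4 transcript XM_005699002.3 was listed at 0 in every ovary.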
